A study of Mus musculus with 4 samples.

Results

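Genes of vitamin A handling and retinoic acid signalling were examined in basal cells sorted from the mouse mammary gland, on 2 diets. The set held 9 genes of the 18193 genes with a value here: Rbp4, Stra6, Aldh1a1, Aldh1a2, Aldh1a3, Crabp1, Crabp2, Rarb and Rarres2. Every probe set that the platform annotation assigns to exactly 1 of these symbols was taken, which gave 13 of 45037 non-control probe sets. A probe set is the group of short probes that an Affymetrix array combines into 1 value. The genes were selected on their symbols, with the SPI minus CAS log2 differences of some of them, Crabp1, Aldh1a3 and Aldh1a1 among them, already known. The diet differences of the 9 genes are therefore given as a description and are not a test. Counts of their probe sets past the threshold of the fit over all probe sets are printed beside the share of all probe sets, and nothing is read from them. The lists of other genes set beside the 9 were also chosen with earlier results of these data known. The counts and p-values of those lists are likewise a description.

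RNA came from freshly sorted basal cells, a population that the labels describe as stem cells, myoepithelial cells and myoepithelial progenitors. The diet under study was soy protein isolate (SPI, 2 arrays), and the control diet was casein (CAS, 2 arrays). All 4 arrays came from mice of the strain given as B66SJL/HEV/J (mixed background), and all carried MMTV-Wnt1, a transgene in which a mammary tumour virus promoter drives the Wnt1 ligand in mammary epithelium. Age, the number of animals behind each array and any pooling are not given in the sources used here, so the spread between arrays of a diet may be technical.

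Retinol, the circulating form of vitamin A, travels in blood on the carrier Rbp4 and can enter cells through the membrane receptor Stra6. Inside the cell retinol is oxidised to retinaldehyde, and the aldehyde dehydrogenases Aldh1a1, Aldh1a2 and Aldh1a3 turn retinaldehyde into retinoic acid. Crabp1 and Crabp2 bind retinoic acid in the cytoplasm, and nuclear receptors such as Rarb, paired with RXR partners, switch target genes in response to it. Rarres2 encodes chemerin, a secreted attractant of immune cells named for its response to retinoids. In the mammary gland Aldh1a3 is known as a gene of luminal progenitors, and aldehyde dehydrogenase activity is widely used to enrich progenitor cells.

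Upstream sequences were compared because retinoic acid receptors act through direct repeats of a short half-site. RefSeq promoter windows of build GRCm38.p6 were matched by symbol for 6 of the 9 genes, in 11 windows (Crabp1, Rbp4, Aldh1a1, Aldh1a2, Rarb and Stra6). The 250 bases before each start were searched on both strands. The half-site was AGGTCA, with G also allowed as the first base and T as the third, in direct repeats spaced by 1, 2 or 5 bases. Only the Rarb window held such a repeat, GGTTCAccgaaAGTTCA with a spacer of 5 bases, at bases -53 to -37 from the start. Across all promoters, 0.088% of 32851 windows held a repeat spaced by 5 bases, 0.174% one spaced by 2 and 0.164% one spaced by 1. The Rarb window is shown for its repeat, in capitals, and the Crabp1 window because that gene had the widest diet difference of the set. Each runs 5′ to 3′ on the gene's strand. The Rarb window lies at chr14:16575477-16575726 on the minus strand and the Crabp1 window at chr9:54764498-54764747 on the plus strand.
Rarb upstream: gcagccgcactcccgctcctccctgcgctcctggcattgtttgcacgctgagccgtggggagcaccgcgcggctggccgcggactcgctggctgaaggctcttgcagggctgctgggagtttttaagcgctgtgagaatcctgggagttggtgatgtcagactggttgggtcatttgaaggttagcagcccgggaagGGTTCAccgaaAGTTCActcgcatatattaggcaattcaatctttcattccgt
Crabp1 upstream: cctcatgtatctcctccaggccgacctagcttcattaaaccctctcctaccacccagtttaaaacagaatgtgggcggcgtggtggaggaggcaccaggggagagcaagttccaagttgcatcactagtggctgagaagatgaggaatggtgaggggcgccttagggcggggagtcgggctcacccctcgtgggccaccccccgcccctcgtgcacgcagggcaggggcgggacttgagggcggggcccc
The Crabp1 window was 63.6% G and C, against 58.0% in the Rarb window and a median of 52.4% over all windows. A match describes these letters and does not show binding, and the array data do not say which start a transcript used.

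The values on the arrays are log2 values from which the median of the 4 arrays had been subtracted for each probe set, so they show differences between arrays and hold no levels. The middle pair of the 4 values of a probe set is therefore the same distance above and below 0. A coarse level could still be read from the digits. On the log2 scale before centring, 3 of the 13 probe sets lay at 8 to 16 (Crabp1, Aldh1a1 and 1 of Rarres2). A further 8 lay at 4 to 8, and the Aldh1a2 probe set and another of Rarres2 lay under 4. Of 44 olfactory receptor probe sets, which serve as genes not expected in this tissue, 12 also lay at 4 or above. A level of 4 or above therefore does not establish that a gene is expressed.

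Crabp1, Aldh1a3, Stra6 and Rarres2 had the widest differences, with values on the SPI arrays 2.10-fold to 4.86-fold lower in 6 probe sets. Of the 13 probe sets, 12 had a negative SPI minus CAS difference and 1, that of Rbp4, a positive one, and the median difference was -0.57 on the log2 scale, against 0.023 over all probe sets. In a limma fit over all 45037 probe sets with Benjamini-Hochberg adjustment, these 6 of the 13 lay past an adjusted p of 0.05, all as lower, where 1.5% of all probe sets were called in either direction and 1.25% as lower. The diets did not overlap in 11 of the 13, where they did not in 48.4% of all probe sets. The genes were chosen with part of these differences known, so neither count set against its share of all probe sets supports a diet effect on the set. In RNA from a sorted population, fewer cells of a type and less RNA per cell cannot be told apart.

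The calls rested on having 4 arrays. Without SPI replicate 1, SPI replicate 2, CAS replicate 1 or CAS replicate 2, left out in turn, limma called 0 of the 45037, while between 4882 and 6513 had an unadjusted p under 0.05. Every call given here, of the 13 and of other genes, was then lost. Over all probe sets 564 were lower and 112 higher in SPI, a split that became 704 lower and 1557 higher once the hybridization controls set the centre of each array. That centring adds 0.16 to every difference and moves the median over all probe sets to 0.18, and 7 of the 13 then lay past the threshold, the 6 as lower and Rbp4 as higher, where 5.02% of all probe sets did. A filter at level 4 or above kept 30247 probe sets and 11 of the 13, of which 8 were called, the 6 with Aldh1a1 and Crabp2, where 3.88% of all were. Among gene means 6 of 9 were called, where 4% of all genes were.

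**Figure D1:**
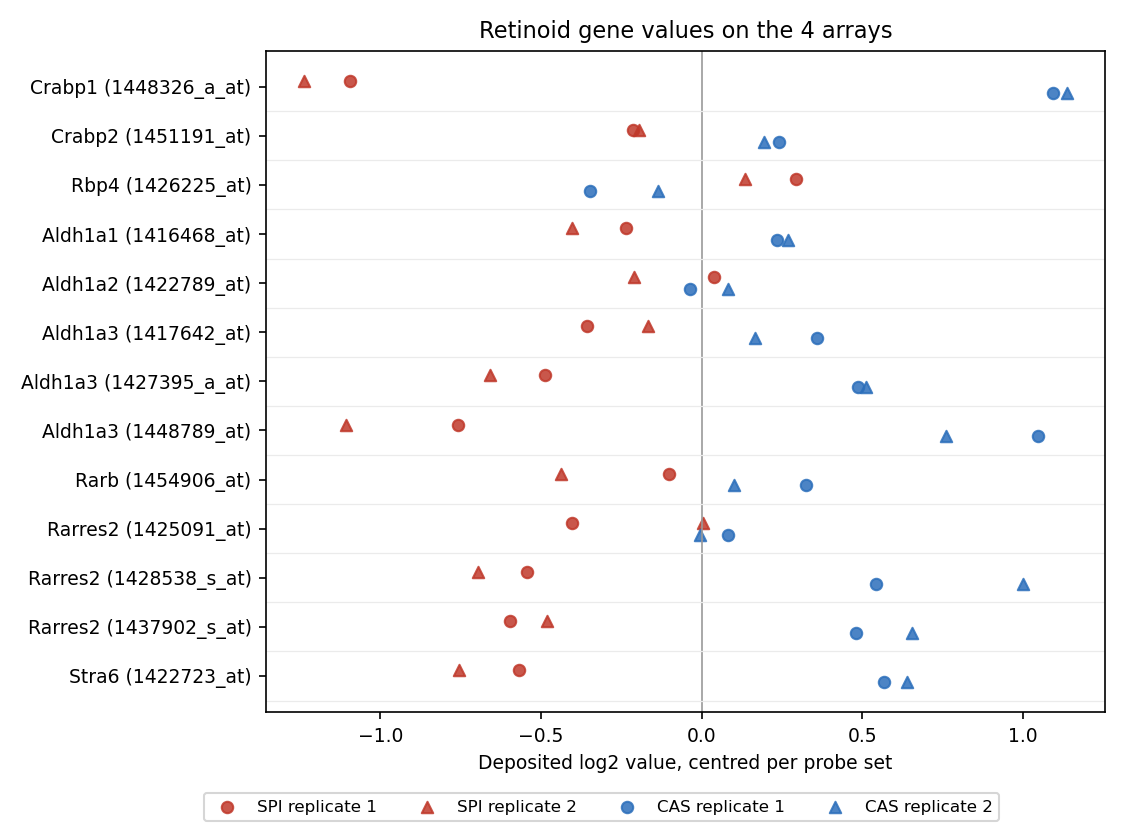
Deposited log2 values, centred per probe set, of the 13 retinoid probe sets on the 4 arrays, with SPI arrays in red and CAS arrays in blue, and circles for replicate 1 and triangles for replicate 2. Crabp1 has the widest gap between the diets, Rbp4 is the 1 probe set with both SPI arrays above both CAS arrays, and the diets overlap for Aldh1a2 and for 1 Rarres2 probe set.

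The carrier and the receptor of retinol had differences of opposite sign. Stra6, the receptor that takes up retinol from its carrier, was at -0.57 and -0.75 on the SPI arrays and at 0.57 and 0.64 on the CAS arrays (probe set 1422723_at). The diets lay 1.14 apart at their nearest arrays, against 0.19 between the SPI arrays and 0.071 between the CAS arrays. The difference was -1.26 (SE 0.095, n = 2 arrays per diet), which is 2.40-fold lower in SPI. Each SE printed here is the moderated one of the limma fit. It draws on the spread of all probe sets and not only on that of the probe set named. Rbp4, the plasma carrier itself, was at 0.29 and 0.14 on the SPI arrays and at -0.35 and -0.14 on the CAS arrays (1426225_at). Both SPI arrays lay above both CAS arrays, but the nearest pair lay only 0.27 apart, where the CAS arrays alone lay 0.21 apart. Its difference was 0.46 (SE 0.11).

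Of the 3 retinaldehyde dehydrogenases, Aldh1a3 had the widest difference. It was read by 3 probe sets, all lower in SPI but by different amounts. Probe set 1448789_at was at -0.76 and -1.11 on the SPI arrays and at 1.05 and 0.76 on the CAS arrays, a difference of -1.84 (SE 0.16) or 3.57-fold. Probe set 1427395_a_at was at -0.49 and -0.66 on the SPI arrays and at 0.49 and 0.51 on the CAS arrays. Its difference was -1.07 (SE 0.090) or 2.10-fold, and its suffix marks probes shared between transcripts of the same gene. The third, 1417642_at, was at -0.36 and -0.17 on the SPI arrays and at 0.36 and 0.17 on the CAS arrays, a difference of -0.53 (SE 0.11). In none of the 3 did the diets overlap, which also held for 48.4% of all probe sets. All 3 lay in the level class 4 to 8, but the size of the Aldh1a3 difference depended on the probe set.

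Aldh1a1, a form abundant in liver and often followed in stem cell work, was at -0.23 and -0.40 on the SPI arrays and at 0.23 and 0.27 on the CAS arrays (1416468_at). Its diets did not overlap, and its difference was -0.57 (SE 0.090), or 1.48-fold lower in SPI. Aldh1a2, the form that makes most retinoic acid in the early embryo, was at 0.037 and -0.21 on the SPI arrays and at -0.037 and 0.083 on the CAS arrays (1422789_at). The diets overlapped, the probe set lay under level 4, and its difference of -0.11 (SE 0.11) turned to 0.046 when the hybridization controls set the centre of each array and to 0.014 without SPI replicate 2.

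Both cytoplasmic binding proteins of retinoic acid had lower values in SPI, and whether their differences are unequal was not tested. Crabp1, which holds retinoic acid in the cytoplasm and is linked to its breakdown, was at -1.10 and -1.24 on the SPI arrays and at 1.10 and 1.14 on the CAS arrays (1448326_a_at). Arrays of a diet lay within 0.14 of each other in SPI and 0.041 in CAS, against 2.19 between the nearest arrays of the 2 diets. The difference of -2.28 (SE 0.085), or 4.86-fold, was the 13th lowest of all 45037. Crabp2, which carries retinoic acid to its nuclear receptors, was at -0.21 and -0.19 on the SPI arrays and at 0.24 and 0.19 on the CAS arrays (1451191_at). It kept a small gap of 0.39 between the diets with little spread within them, and its difference was -0.42 (SE 0.074), or 1.34-fold lower in SPI.

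Rarb, the retinoic acid receptor that is itself switched on by retinoic acid and whose upstream window held the repeat printed above, was at -0.10 and -0.44 on the SPI arrays and at 0.33 and 0.10 on the CAS arrays (1454906_at). The diets did not overlap, but the SPI arrays lay 0.34 apart and the nearest arrays of the 2 diets 0.20. Its difference was -0.48 (SE 0.15), and it was between -0.65 and -0.31 across the settings tried.

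Rarres2, which encodes chemerin, was read by 3 probe sets, of which 2 had wide differences. Probe set 1428538_s_at, at level 8 to 16, was at -0.54 and -0.70 on the SPI arrays and at 0.54 and 1.002 on the CAS arrays, a difference of -1.39 (SE 0.17) or 2.62-fold. Probe set 1437902_s_at was at -0.60 and -0.48 on the SPI arrays and at 0.48 and 0.66 on the CAS arrays, a difference of -1.11 (SE 0.097) or 2.15-fold. The suffix of both marks probes that other transcripts can share. The remaining one, 1425091_at, lay under level 4 and was at -0.40 and 0.0033 on the SPI arrays and at 0.083 and -0.0033 on the CAS arrays. Its diets overlapped and its difference was -0.24 (SE 0.15). In a further setting, probe sets with the suffix _s_at, _x_at or _a_at were left out. The suffix _a_at marks probes shared by transcripts of the same gene. That setting removed 1448326_a_at, the only probe set of Crabp1, so Crabp1 was not tested there. Those then past the threshold were 1448789_at of Aldh1a3 and the Stra6 probe set, 2 of 9, where 1.27% of all were.

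The genes of the chemerin receptors did not pass. Of 3 measured receptor genes, 0 of 4 probe sets passed in limma, where 1.5% of all probe sets did. Among these 4, 1 had an unadjusted p under 0.05, where 17.8% of all probe sets did. Cmklr1, the signalling receptor, was at 0.32 (SE 0.076, limma adjusted p = 0.139) and at 0.085 in its other probe set. Ccrl2, which binds chemerin without signalling, was at -0.22 (adjusted p = 0.309), and Gpr1 was at -0.024 (adjusted p = 0.936), a sign that turned under centring on the hybridization controls, where Cmklr1 passed as higher at 0.48 (adjusted p = 0.0421).

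Other genes of the pathway were counted against the same threshold. Of 47 further genes of retinoid transport, oxidation, breakdown and nuclear reception, 42 were measured, by 73 probe sets, and 2 probe sets fell and 0 rose, where 1.25% of all probe sets were lower and 0.249% higher. Rbp7, a cellular retinol-binding protein, was at -0.27 and -0.29 on the SPI arrays and at 0.27 and 0.35 on the CAS arrays. It was 1.51-fold lower (95% interval of the log2 difference -0.78 to -0.40, limma adjusted p = 0.0413), and missed the threshold under centring on the hybridization controls (-0.43, adjusted p = 0.0522). Adh1, an alcohol dehydrogenase that can oxidise retinol, was at -0.34 and -0.44 on the SPI arrays and at 0.35 and 0.34 on the CAS arrays. It was 1.67-fold lower (-0.94 to -0.54, limma adjusted p = 0.0266). Leaving out any 1 of the 4 arrays ended both calls, with adjusted p between 0.262 and 0.336 for Rbp7 and between 0.183 and 0.291 for Adh1.

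In the transport and storage list 1 of 10 measured genes fell, Rbp7, where 2.2% of all genes had a probe set that did. Of the 16 probe sets of this list 7 were classed under level 4. Ttr, the plasma partner of Rbp4, was at 0.41 in its probe set with the smallest p (limma adjusted p = 0.154) and between -0.014 and 0.15 in its others. Dgat1, which can esterify retinol, was at 0.25 and -0.025, and Lrat, which stores retinol as its ester, at -0.21 and -0.043. Centred on the hybridization controls, the Ttr probe set at 0.41 passed as higher (0.57, adjusted p = 0.0468). Of 19 measured dehydrogenases and reductases 1 fell, Adh1, against the same 2.2% of all genes. Of their 28 probe sets 14 were classed under level 4. Aldh1a7, a rodent gene close to Aldh1a1, was at -0.41 (adjusted p = 0.134), Dhrs3, which turns retinaldehyde back into retinol, at -0.39 (adjusted p = 0.158) and Rdh14 between 0.21 and 0.29 in its 3 probe sets. The breakdown enzymes Cyp26b1 and Cyp26a1 were at -0.16 and 0.15 and did not pass.

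Of 11 measured receptors, carriers and cofactors 0 of 27 probe sets passed in limma, where 1.5% of all probe sets did. Among these 27, 6 had an unadjusted p under 0.05, a count near the 17.8% of all probe sets. Rxra, the partner of retinoic acid receptors, was at -0.50 in 1 probe set (limma adjusted p = 0.0645) but at 0.24 and 0.11 in its others. The probe set at -0.50 passed among probe sets at level 4 or above (-0.50, adjusted p = 0.0329). Nrip1, a corepressor, was at 0.52 (adjusted p = 0.0761) and between 0.042 and 0.45 in its 5 others. The probe set at 0.52 passed as higher at level 4 or above (adjusted p = 0.0431) and when centred on the hybridization controls (0.68, adjusted p = 0.0224). Rarg, a retinoic acid receptor of skin and other epithelia, was at -0.23 and -0.058. The coactivator Ncoa1 was at -0.20, -0.0067 and 0.16 in its 3 probe sets, which did not share a sign.

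Among 15 measured genes known to respond to retinoic acid, 1 of 33 probe sets fell and 0 rose, near the 1.25% and 0.249% of all probe sets. That gene was Gprc5a, a membrane protein induced by retinoic acid, at -0.43 and -0.44 on the SPI arrays and at 0.46 and 0.43 on the CAS arrays, 1.84-fold lower (limma adjusted p = 0.0159, and between 0.170 and 0.278 with 1 array left out). Meis2 was between -0.34 and -0.071 in its 4 probe sets, Rarres1 at -0.35 and Tfap2c between 0.018 and 0.25 in its 3, and none of these genes passed. The median of the list was -0.056, and it was 0.099 under centring on the hybridization controls.

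**Figure D2:**
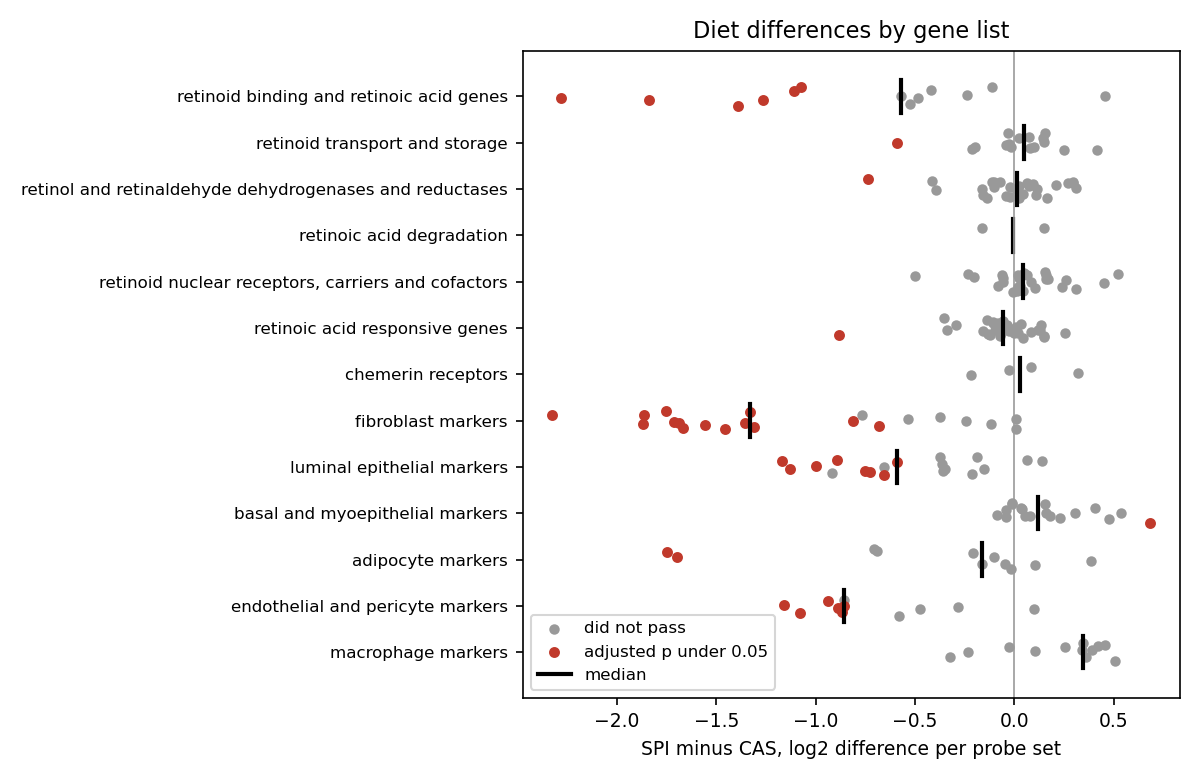
SPI minus CAS log2 difference of every probe set of each gene list, with probe sets past an adjusted p of 0.05 in red, the others in grey and the list median as a black bar. The median was -0.57 for the retinoid genes, -0.59 for the luminal list, -0.86 for the endothelial and pericyte list and -1.33 for the fibroblast list. The medians of the other retinoid lists lie near 0.

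Markers of other cell types moved on the same arrays. These marker lists were chosen with earlier results of these data known, so their counts and adjusted p are a description and not a test. Of 11 measured fibroblast marker genes 10 had a probe set that fell, where 2.2% of all genes had one. The list median was -0.67 and -0.67 on the SPI arrays and 0.63 and 0.70 on the CAS arrays. The 3 with the smallest p were Lum (5.01-fold, limma adjusted p = 0.00416), Mfap5 (3.64-fold in 1 probe set, while the other at -0.77 did not pass) and Dpt (3.37-fold), all of connective tissue matrix, and 6 of the 21 probe sets lay at level 8 to 16.

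Of 9 measured luminal genes 5 had a probe set that fell, where 2.2% of all genes had one. Those with the smallest p were the transcription factor Ehf (2.25-fold), the receptor Kit (2.18-fold) and the keratin Krt18 (1.66-fold). Of the other 3 probe sets of Ehf 2 fell and 1 was at 0.14, and Kit missed the threshold as a mean of its probe sets (-1.02, limma adjusted p = 0.0504). The luminal median was -0.20 and -0.27 on the SPI arrays and 0.27 and 0.20 on the CAS arrays. Of 7 endothelial and pericyte genes 3 had a probe set that fell, against the same 2.2% of all genes. Rgs5 fell in all 4 of its probe sets, with differences between -1.16 and -0.87, and Plvap in its 1 at -0.86. Cdh5 fell in 1 probe set at -0.94 and was at 0.10 in the other, and as a mean of both it missed the threshold (-0.42, limma adjusted p = 0.0552). The endothelial medians were -0.38 and -0.44 on the SPI arrays and 0.44 and 0.38 on the CAS arrays.

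Of 7 measured adipocyte genes Lpl alone fell (3.35-fold), where 2.2% of all genes had a probe set that did. Fabp4 (-0.71, limma adjusted p = 0.0652, and between -0.69 and -0.015 in its others) and Adipoq (0.38, adjusted p = 0.107) did not pass. Of 8 macrophage genes 0 passed in limma, where 2.2% of all genes had a probe set that fell and 0.456% one that rose. Of their 12 probe sets 8 had an unadjusted p under 0.05, where 17.8% of all did, and the list median was 0.35. The 3 genes with the smallest p were C1qc (0.42), Cd14 (-0.32) and Cd68 (0.51). Centred on the hybridization controls, C1qc (0.58, adjusted p = 0.0249), Cd68 (0.66, adjusted p = 0.0444), Adipoq (0.54, adjusted p = 0.0294) and Trp63 (0.69, adjusted p = 0.0183) passed as higher and Fabp4 as lower (-0.55, adjusted p = 0.0355). Of 8 basal genes Oxtr, the oxytocin receptor, rose in 1 of its 2 probe sets (1.61-fold, limma adjusted p = 0.0270, the other at 0.31), where 0.456% of all genes had one that rose. The basal median was 0.12, and 5 of the 18 probe sets were negative. Trp63 was between 0.16 and 0.54 in its 4 probe sets and Krt14 at 0.48, -0.011 and -0.012, Krt5 was at -0.042, and none of these passed. Of the 18 basal probe sets 11 lay at level 8 to 16, those of Krt5 and of Trp63 and Krt14 in part among them. The part of any of these lists in the retinoid differences was not tested.

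The genes beside the retinoid genes on their chromosomes were then examined, a comparison added after the values were seen. For each of the 9, the nearest measured protein-coding gene on either side was taken by its order in GRCm38.p6, which gave 18 genes and 35 probe sets. Their median difference was 0.030, and 1 of the 35 probe sets fell and 0 rose in limma, where 1.25% of all probe sets were lower and 0.249% higher. That 1 was Islr, a secreted protein of stromal cells that lies beside Stra6. Islr was at -0.52 and -1.05 on the SPI arrays and at 0.52 and 0.77 on the CAS arrays, a difference of -1.42 (SE 0.20, limma adjusted p = 0.0491), just inside the threshold. Beside Aldh1a1, Anxa1, an inhibitor of inflammation, was at -0.99 and -0.64 in its 2 probe sets (adjusted p = 0.0743 and 0.0707) and did not pass. Beside Crabp1, Ireb2 was at 0.093 and the 4 probe sets of Wdr61 lay between 0.030 and 0.34, and none of them passed.

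**Figure D3:**
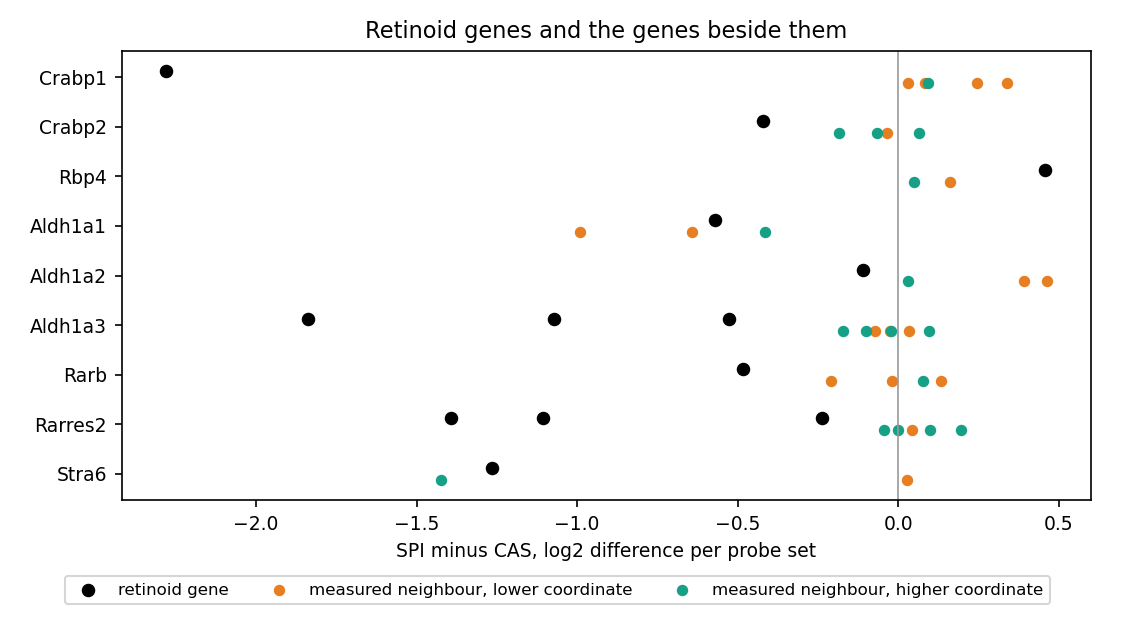
SPI minus CAS log2 difference per probe set of each retinoid gene (black) and of the nearest measured protein-coding gene on its lower-coordinate side (orange) and higher-coordinate side (green). Apart from Islr beside Stra6 at -1.42 and both neighbours of Aldh1a1, the neighbours lie between -0.21 and 0.46.

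The genes with the pattern most like Crabp1 over the 4 arrays, by Euclidean distance of the centred log2 values, were Fmod (0.148), Tmprss11e (0.160), Ms4a4d (0.164), Ogn (0.174) and Mndal (0.184). Their differences were -2.36 for Fmod, -2.38 for Tmprss11e, -2.16 for Ms4a4d, -2.13 for Ogn and -2.19 for Mndal. The probe sets of Tmprss11e and Mndal lay under level 4, and the suffix of those of Fmod and Mndal marks shared probes. With 4 arrays in 2 diets this likeness is mostly that of the diet difference itself.

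**Figure D4:**
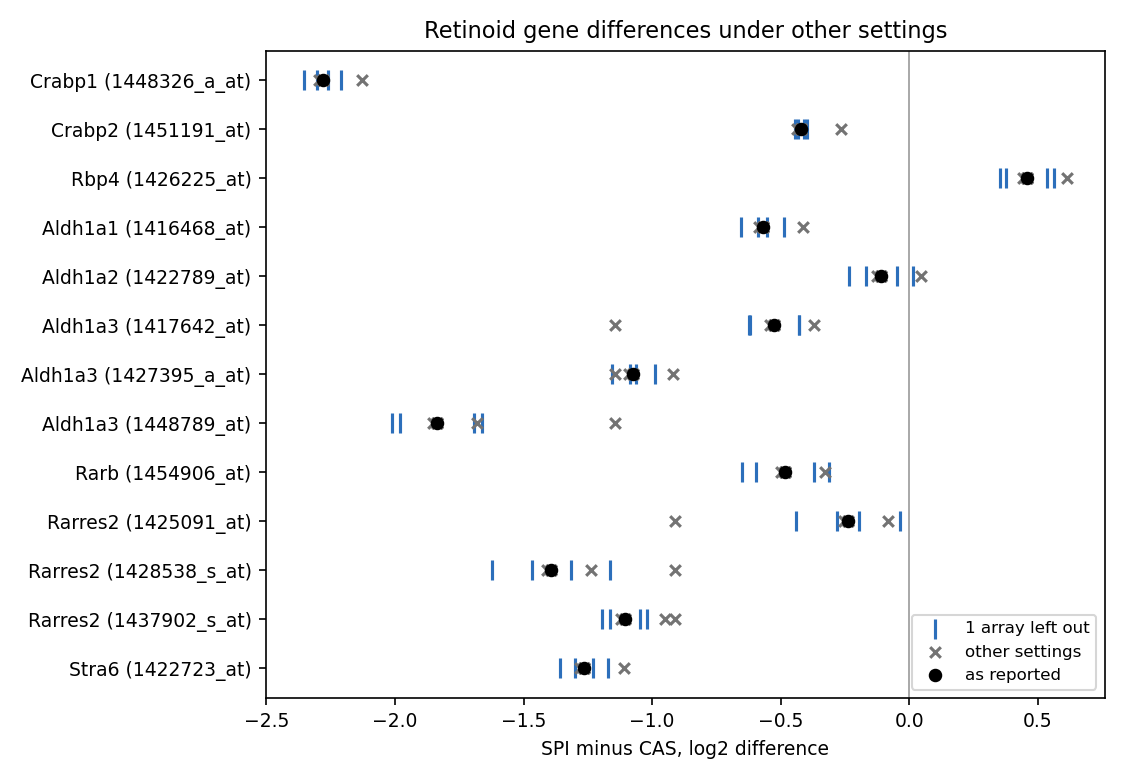
SPI minus CAS log2 difference of each retinoid probe set as reported (black), with 1 array left out (blue bars) and under the other settings (grey crosses). Among the crosses is the difference of the gene mean, which is the same for all probe sets of Aldh1a3 and for all of Rarres2. Aldh1a2 is the 1 probe set that lies on both sides of 0, and Crabp1 stays between -2.35 and -2.13.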

How the data were processed

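RNA of 2 SPI and 2 CAS samples was measured on Affymetrix arrays. The deposited numbers are on the log2 scale and come from RMA, which the submitters' processing notes name with GCOS and no version. In each row the median over the 4 arrays was 0 (largest departure 5.0e-07), so rows had been centred before deposit, which the labels do not mention. Genes were named from the platform annotation: 34945 of 45037 non-control probe sets had exactly 1 gene, 932 had several and 9160 were not listed. Differences between arrays are multiples of the number step before centring, which gave the level classes. The class follows the lowest array, so a fall can lower it.

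All non-control probe sets entered a limma fit (version 3.58.1, R 4.3.3, moderated two-sided test of SPI minus CAS without a block, Benjamini-Hochberg threshold 0.05), with 2 residual degrees of freedom, after a check on simulated data. Named genes were all member probe sets, the 4 genes per pathway list and 3 per marker list with the smallest p, and the 5 nearest to Crabp1. Members and lists were chosen with earlier results of these data known. Alternatives were a replicate block, each array left out, 2 other centrings, gene means, a level filter and probe sets with shared probes left out. The labels do not say that arrays of a diet are separate animals, and p-values measure only the spread between these samples. The number of arrays limits precision.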

Additional observations from a re-analysis of the deposited data

How the results depend on the processing

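With the replicate number as a block, 79 of all probe sets passed, 2 retinoid probe sets (Crabp1 and 1448789_at of Aldh1a3) did, and 0 of the other pathway and 0 of the retinoic acid responsive probe sets. The labels do not say that a number marks a shared source, and same-numbered arrays deviated from their diet means with a correlation of -0.0989 over all probe sets. With 1 array left out, which leaves 1 diet with a single array, the median retinoid difference was between -0.65 and -0.59. Centred on the hybridization controls, 2261 of all and 5 other pathway probe sets passed, and the retinoid median was -0.41. At level 4 or above 1175 of all and 4 other pathway probe sets passed, 8 of 11 retinoid ones did, and the retinoid median was -1.07, with fewer and brighter probe sets tested. Without probe sets with shared probes, a setting that left out the only Crabp1 probe set, the retinoid count was 2 and the median -0.48. Centring on array medians changed no call among the named probe sets, and means over a gene gave 6 of 9 retinoid genes. The sign turned for Aldh1a2 (0.046 on the hybridization controls, 0.014 without SPI replicate 2, and between -0.23 and 0.014 with 1 array left out) and for Gpr1 (0.13 on the hybridization controls, 0.0057 without SPI replicate 2, 0.081 without CAS replicate 2, and between -0.13 and 0.081 with 1 array left out), neither of which passed. The cause of the changes between settings, the loss of calls with 1 array left out among them, was not tested.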
